A study of Mus musculus with 55 samples.

Results

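Distal intergenic CpGs, the CpG sites that lie over 10 kb from every annotated gene, made up 70239 of the 271325 CpGs in the table of liver methylation levels, or 25.9%. They were chosen by position alone: each had a value in at least 80% of the 24 libraries, lay on 1 of the 19 autosomes of the mouse genome build mm9, and lay over 10 kb from any gene of the mm9 annotation, whatever the type of that gene. Of the other autosomal CpGs, 161709 lay inside genes and 38082 lay outside genes but within 10 kb of one, and both together are called near-gene CpGs here. The livers came from C57BL/6 mice, given as C57BL/6J in the study's methods, at 3 ages: 5 libraries from late-gestation embryos (E18.5), 9 from pups at postnatal day 1 (P1) and 10 from adults at 9 wk. The titles of the P1 libraries also carry the tag 6Mo, whose meaning the labels do not give, and the age label was used. No transgene or treatment that set a group apart was found in the labels or the study's methods. Those methods name only E18.5 and 9 wk livers for the first RRBS experiment and describe no set of 9 P1 livers. Whether the P1 livers came from another cohort is therefore not known. The methods describe the adults as males without giving the sex of the other RRBS livers. They name a chow with fat from coconut oil for the first RRBS mice.

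In mammals most CpGs far from genes carry a methyl group on the cytosine, which is copied to the new strand at each cell division by the maintenance methyltransferase. Exceptions are enhancers, CpG islands and other elements where bound proteins keep the DNA partly or fully unmethylated, and enhancers differ in methylation between cell types. The liver changes its makeup around birth, because the fetal liver is the main site of blood formation and the adult liver is mostly hepatocytes. In whole liver, a change in the share of a cell type and a change within cells cannot be told apart. Levels were measured by reduced representation bisulfite sequencing (RRBS), in which the enzyme MspI cuts at CCGG and the ends of short fragments are sequenced after bisulfite treatment, so the method samples CpGs near such sites: 57.0% of the distal CpGs lay in a CCGG, against 53.5% of the near-gene CpGs.

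The distal CpGs stood a median of 42.1 kb from the nearest gene and at most 1149 kb. They fell into 26638 loci, a locus being a chain of CpGs of the table with gaps of at most 200 bp, with a median of 2 and a most of 27 distal CpGs a locus. The nearest gene coded for a protein at 60.1% of them, and 17255 lay over 100 kb from any gene. Within a window of 200 bp on either side they had a median of 9 CpGs and 50.1% GC, against 10 CpGs and 53.4% GC at near-gene CpGs. For 5201 of them, or 7.40%, the 51 bases around the CpG occurred more than once in mm9 after bisulfite conversion, against 1.80% of the near-gene CpGs.

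The sequences below are the centres of distal regions that gained or lost methylation between E18.5 and 9 wk over the most CpGs or by the largest mean, the locus of at least 5 CpGs that lay farthest from any gene, and the 51 bases that recurred most often. They are read from mm9 on the plus strand, 5′ to 3′. Capitals mark the CpGs, or in the last line only the CpG that was measured.
Gained methylation, between Rpn1 and Gata2, chr6:88066887-88067186: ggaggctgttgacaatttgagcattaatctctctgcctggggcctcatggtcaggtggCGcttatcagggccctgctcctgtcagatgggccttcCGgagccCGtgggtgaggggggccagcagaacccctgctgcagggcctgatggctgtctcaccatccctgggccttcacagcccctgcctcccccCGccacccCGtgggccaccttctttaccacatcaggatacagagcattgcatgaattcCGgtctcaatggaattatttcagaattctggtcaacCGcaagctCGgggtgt
Gained methylation, between Syf2 and Runx3, chr4:134581781-134582080: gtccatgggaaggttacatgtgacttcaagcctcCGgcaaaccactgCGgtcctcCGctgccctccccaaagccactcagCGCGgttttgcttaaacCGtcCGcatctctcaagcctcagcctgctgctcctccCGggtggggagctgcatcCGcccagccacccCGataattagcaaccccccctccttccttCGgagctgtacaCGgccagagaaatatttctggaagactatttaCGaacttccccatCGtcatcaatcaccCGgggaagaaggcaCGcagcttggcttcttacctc
Gained methylation, between Tacc3 and Fgfr3, chr5:34035064-34035363: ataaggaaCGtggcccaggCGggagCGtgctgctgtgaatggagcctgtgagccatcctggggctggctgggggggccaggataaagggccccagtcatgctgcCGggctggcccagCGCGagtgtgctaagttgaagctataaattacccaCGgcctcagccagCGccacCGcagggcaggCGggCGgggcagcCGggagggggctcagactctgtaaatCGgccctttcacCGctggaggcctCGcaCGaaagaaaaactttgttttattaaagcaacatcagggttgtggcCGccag
Lost methylation, between Secisbp2l and Cops2, chr2:125618607-125618906: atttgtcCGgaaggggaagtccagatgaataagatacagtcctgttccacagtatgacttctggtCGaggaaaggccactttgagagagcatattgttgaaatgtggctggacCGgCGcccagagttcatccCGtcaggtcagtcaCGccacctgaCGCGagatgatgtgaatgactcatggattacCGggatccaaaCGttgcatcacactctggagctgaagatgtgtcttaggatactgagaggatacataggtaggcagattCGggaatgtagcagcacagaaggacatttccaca
Lost methylation, between Sik1 and Hsf2bp, chr17:32041018-32041317: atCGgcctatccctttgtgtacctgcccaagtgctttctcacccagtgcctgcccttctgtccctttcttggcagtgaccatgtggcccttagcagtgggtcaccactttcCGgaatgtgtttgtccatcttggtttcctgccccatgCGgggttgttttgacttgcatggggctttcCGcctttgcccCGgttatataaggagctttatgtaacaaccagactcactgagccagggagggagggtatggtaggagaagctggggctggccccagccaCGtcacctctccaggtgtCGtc
Most remote locus, chr14:81796008-81796307: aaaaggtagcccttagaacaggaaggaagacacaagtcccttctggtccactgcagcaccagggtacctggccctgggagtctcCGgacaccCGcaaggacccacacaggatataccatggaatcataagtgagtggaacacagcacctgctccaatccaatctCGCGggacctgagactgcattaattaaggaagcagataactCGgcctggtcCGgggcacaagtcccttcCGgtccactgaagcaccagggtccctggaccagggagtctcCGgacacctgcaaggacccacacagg
Most repeated 51 bases, chr6:50653911-50653961: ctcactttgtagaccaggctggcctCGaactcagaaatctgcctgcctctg

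Distal CpGs were highly methylated at every age and rose both before and after P1. Means per library were taken over the 16231 distal CpGs that no library lacked. They were 67.0, 66.7, 68.5, 67.4 and 67.2% in the E18.5 libraries. The 9 P1 libraries ran from 70.0 to 74.96% with a median of 71.3%, and the 10 libraries of 9 wk ran from 77.6 to 78.9% with a median of 77.9%. No 2 of the ages overlapped. Averaged by age, the level was 67.4% ± 0.698 at E18.5 (SD, n = 5), 72.3% ± 2.04 in P1 livers (SD, n = 9) and 78.0% ± 0.423 at 9 wk (SD, n = 10), which is a rise of 10.6 percentage points in all, 4.90 before P1 and 5.75 after it. Replicates 6, 8 and 9 of P1 stood at 74.9, 74.96 and 74.5%, and the other 6 libraries of that age between 70.0 and 72.6%. Without those 3 libraries the rise was 3.63 points from E18.5 to P1 and 7.01 points from P1 to 9 wk.

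**Figure D1:**
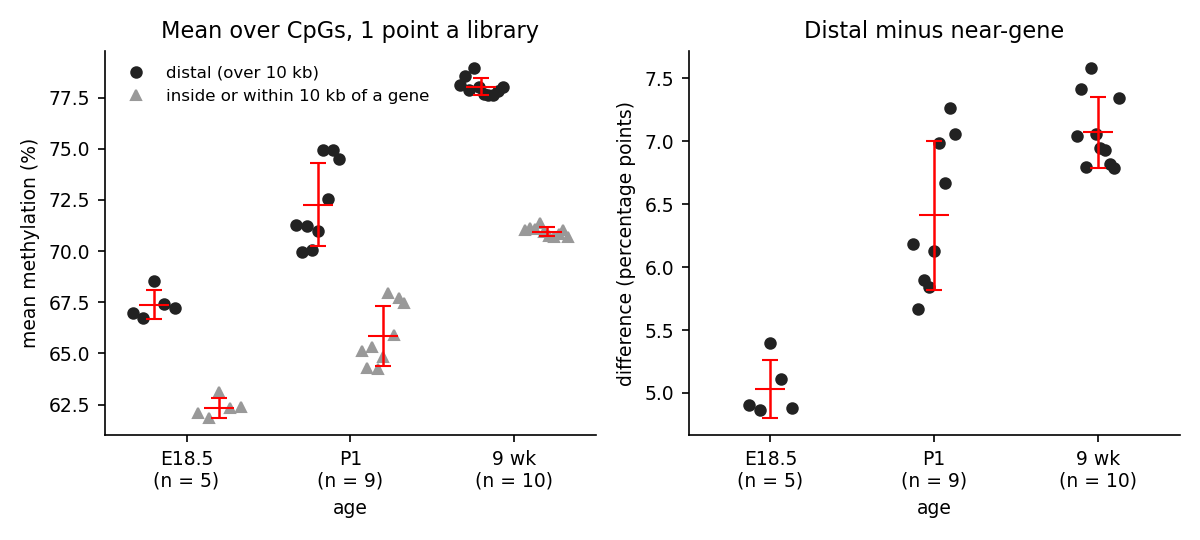
Mean methylation level per library (left, percent, axis cut below 61) over CpGs that no library lacked, for distal CpGs (circles) and near-gene CpGs (triangles) at E18.5, P1 and 9 wk, and the difference between both means in each library (right, percentage points); each point is 1 library, and red bars give the mean and SD. Distal means span 66.7 to 68.5% in E18.5 libraries, 70.0 to 74.96% in P1 libraries and 77.6 to 78.9% in adults, and the difference widens from a mean of 5.03 points at E18.5 to 7.07 points at 9 wk.

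Near-gene CpGs were lower and rose less. Their mean over the 45223 CpGs that no library lacked was 62.3% ± 0.483 at E18.5 (SD, n = 5), 65.9% ± 1.47 in P1 livers (SD, n = 9) and 71.0% ± 0.223 at 9 wk (SD, n = 10). In each library the distal mean exceeded the near-gene mean, by 4.86 to 5.40 points at E18.5, by 5.67 to 7.27 points at P1 and by 6.78 to 7.58 points at 9 wk. The excess at E18.5 did not overlap with that at either later age, whereas P1 and 9 wk overlapped. The excess grew by 2.04 points between E18.5 and 9 wk. No p-value is given for these means, because they are scores over a chosen set of CpGs.

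The rise moved the distal CpGs toward full methylation. At E18.5, 31.2% of them had a mean level over 80% and 4.70% had one under 20%. By 9 wk the share over 80% was 65.5%, while the share under 20% was 4.14%. Among near-gene CpGs the share over 80% went from 34.1 to 57.5% and the share under 20% from 14.3 to 12.3%. CpGs under 10% in every library are not in the table, so the unmethylated class is a lower count in both sets.

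Between E18.5 and 9 wk, 65380 of the 70239 distal CpGs could be tested, and 45142 of them, or 69.0%, passed the threshold of an adjusted p of at most 0.1 with a difference above 5 points (limma, Benjamini-Hochberg over all 249729 CpGs tested). Over all CpGs tested the share was 64.9%. Of the distal CpGs tested, 42369 or 64.8% gained methylation, against 58.5% of all CpGs, and 2773 or 4.24% lost it, against 6.46% of all CpGs. The median change was 10.9 points at distal CpGs and 9.68 points over all CpGs, and from the lower to the upper quartile, distal changes ran from 6.01 to 15.9 points. Changes over 30 points were rarer than over all CpGs: they were found at 2979 distal CpGs, or 4.56% against 6.93%, of which 2218 gained (3.39% against 4.69%) and 761 lost methylation (1.16% against 2.24%). Counted by locus, so that neighbouring CpGs on the same fragments count once, 18757 of 22752 distal loci changed, or 82.4% against 75.9% of all loci. By locus, 17815 gained (78.3% against 69.3%) and 942 lost methylation (4.14% against 6.55%), and 782 changed by over 30 points (3.44% against 5.05%), 580 upward (2.55% against 3.24%) and 202 downward (0.888% against 1.81%).

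The 4859 distal CpGs left out of this test comprised 4855 with a value in under 80% of the libraries compared and 4 under 10% in all of them. Part of the rise was common to all highly methylated CpGs: the library means over the 30280 CpGs that averaged over 80% ran from 81.7 to 93.3%, and 8542 of these CpGs were distal. After each library was scaled to the same mean over these CpGs, the median change was 1.29 points at distal CpGs and 0.513 points over all CpGs. Because distal CpGs are among those that set the scale, a small median after scaling is in part fixed by the scaling itself. With that scaling 10507 distal CpGs gained and 5432 lost methylation, or 16.1 and 8.31% of those tested. Gains were thus 65.9% of the distal calls instead of 93.9%. Over all CpGs 43003 gained and 33646 lost methylation, and 30.7% were called. The share called was therefore lower at distal CpGs than over all CpGs, the reverse of the order before scaling. Distal changes over 30 points were 1272 gains and 1110 losses. Whether the common rise came from the tissue or from the libraries was not tested.

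**Figure D2:**
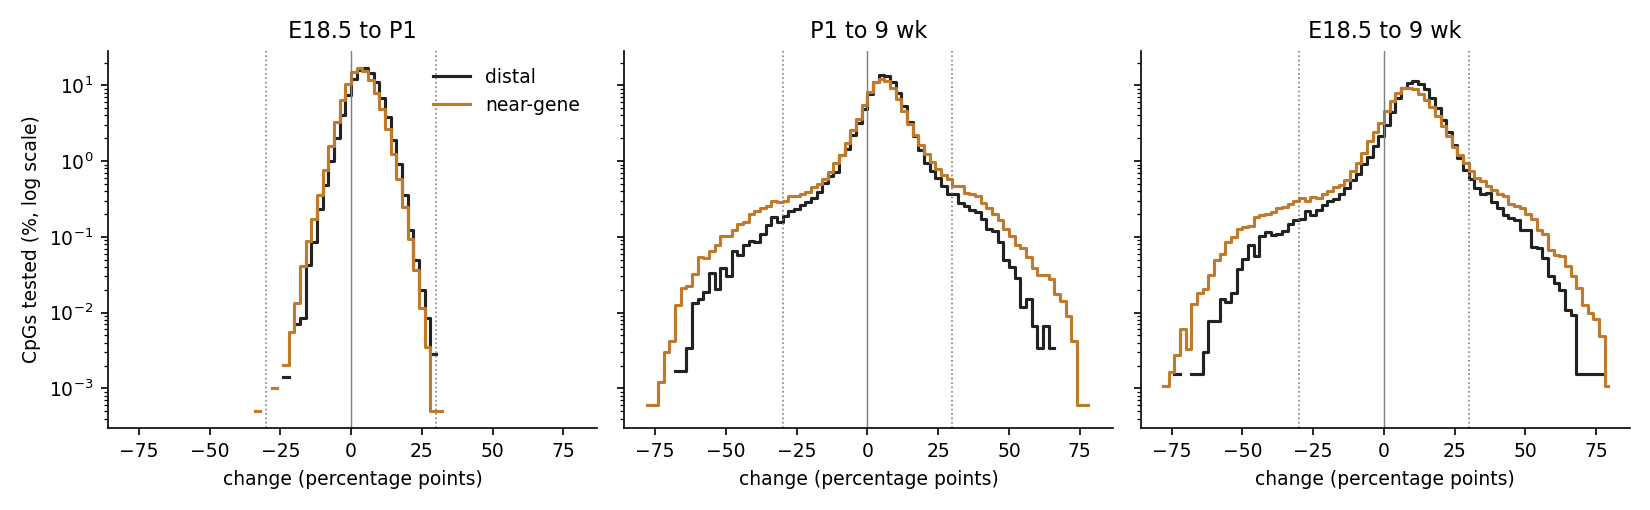
Distribution of the change in methylation level per CpG (x axis, percentage points; y axis, percent of the CpGs tested in bins of 2 points, log scale) from E18.5 to P1, P1 to 9 wk and E18.5 to 9 wk, for distal CpGs (black) and near-gene CpGs (brown); dotted lines stand at 30 points of gain and loss. From E18.5 to 9 wk the distal median is 10.9 points, and both tails are thinner for distal CpGs, with 3.39% over 30 points of gain and 1.16% over 30 points of loss.

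From E18.5 to P1 the distal CpGs shifted upward by a median of 4.74 points, against 3.74 points over all CpGs. Few single CpGs passed the test: 519 of 69900, or 0.742% against 0.552% of all CpGs, with 517 gains (0.740% against 0.54%) and 2 losses (0.00286% against 0.0119%), and none over 30 points. At an unadjusted p of at most 0.05 there were 14156 of the 69900 in limma. Unadjusted counts over all CpGs were not computed, so these counts have no share to stand beside. Fitted by locus, 3421 of 26361 distal loci passed, or 13.0% against 10.3% of all loci. After scaling by the highly methylated CpGs, the median shift was 0.778 points at distal CpGs. Limma then called 0 distal CpGs and 1 over all CpGs, with 5363 distal CpGs at an unadjusted p of at most 0.05. On the logit scale limma called 0 distal CpGs, and 1 gain and 2 losses over all CpGs, with 10755 distal CpGs at that unadjusted p. It also called 0 distal CpGs at an adjusted p of at most 0.05. The count of 519 rested on few libraries. It was 0 when any 1 of the 5 E18.5 libraries or P1 replicate 6, 8 or 9 was left out, and between 787 and 1406 without P1 replicate 1, 2, 3, 4 or 5.

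From P1 to 9 wk, 24299 of 59149 distal CpGs changed, or 41.1% against 43.1% of all CpGs. Gains numbered 21367, or 36.1% against 36.1%, and losses 2932, or 4.96% against 7% of all CpGs. Changes over 30 points were found at 1866 distal CpGs, or 3.15% against 5.25%, with 1187 gains (2.01% against 3.12%) and 679 losses (1.15% against 2.13%). After the scaling described above, gains were 58.7% of the distal calls between P1 and 9 wk instead of 87.9%. With that scaling 6073 distal CpGs gained and 4276 lost methylation, or 10.3 and 7.23% of those tested. Over all CpGs 29864 gained and 22345 lost methylation, and 22.99% were called. Gains thus outnumbered losses in both sets, and the share called was lower at distal CpGs. Distal changes over 30 points were then 814 gains and 817 losses, and counts over all CpGs are not given beside them. The CpGs with large changes were followed through P1. The 2017 distal CpGs that gained over 30 points by 9 wk and were tested in all 3 comparisons had mean levels of 34.9% at E18.5, 42.8% at P1 and 74.7% at 9 wk. The 681 such CpGs that lost over 30 points had means of 65.7, 64.3 and 26.0%, so that P1 was near E18.5 for the losses and part of the way up for the gains. These means were not scaled, and before scaling the distal CpGs tested shifted upward by a median of 4.74 points from E18.5 to P1. The difference between gains and losses at P1 may therefore hold that common shift, and it was not computed after scaling.

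The level of a distal CpG rose with its distance from the nearest gene at all ages, its median change varied little, and large changes became rare. At 10 to 20 kb the median level was 72.7% at E18.5, 78.6% at P1 and 85.7% at 9 wk, and at over 500 kb, where 924 CpGs in 384 loci lay, it was 77.8, 83.4 and 89.3%. The share of CpGs under 20% at E18.5 was 7.68% at 10 to 20 kb, 3.46% at 50 to 100 kb and 1.19% at over 500 kb. The median change from E18.5 to 9 wk was 10.8 points at 10 to 20 kb, 11.1 at 20 to 50 kb, 11.0 at 50 to 100 kb, 11.0 at 100 to 200 kb, 10.5 at 200 to 500 kb and 10.0 at over 500 kb. Over the same steps, the share of tested CpGs that gained over 30 points was 4.53, 4.24, 2.96, 1.98, 1.03 and 0.227%. The share that lost over 30 points was 1.57, 1.37, 1.14, 0.647 and 0.395%, and none of the 883 CpGs tested at over 500 kb did so. Losses of any size over 5 points were 5.08% at 10 to 20 kb and 0.113% at over 500 kb, whereas gains of any size were 63.7 and 64.3%. After the scaling described above, the median change was 1.37 points at 10 to 20 kb, at most 1.52 points in the other distal classes and -0.0503 points at over 500 kb. The sign of the median in the farthest class thus depends on the scaling. With that scaling losses over 5 points were 9.57% at 10 to 20 kb and 3.62% at over 500 kb, a smaller fall.

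**Figure D3:**
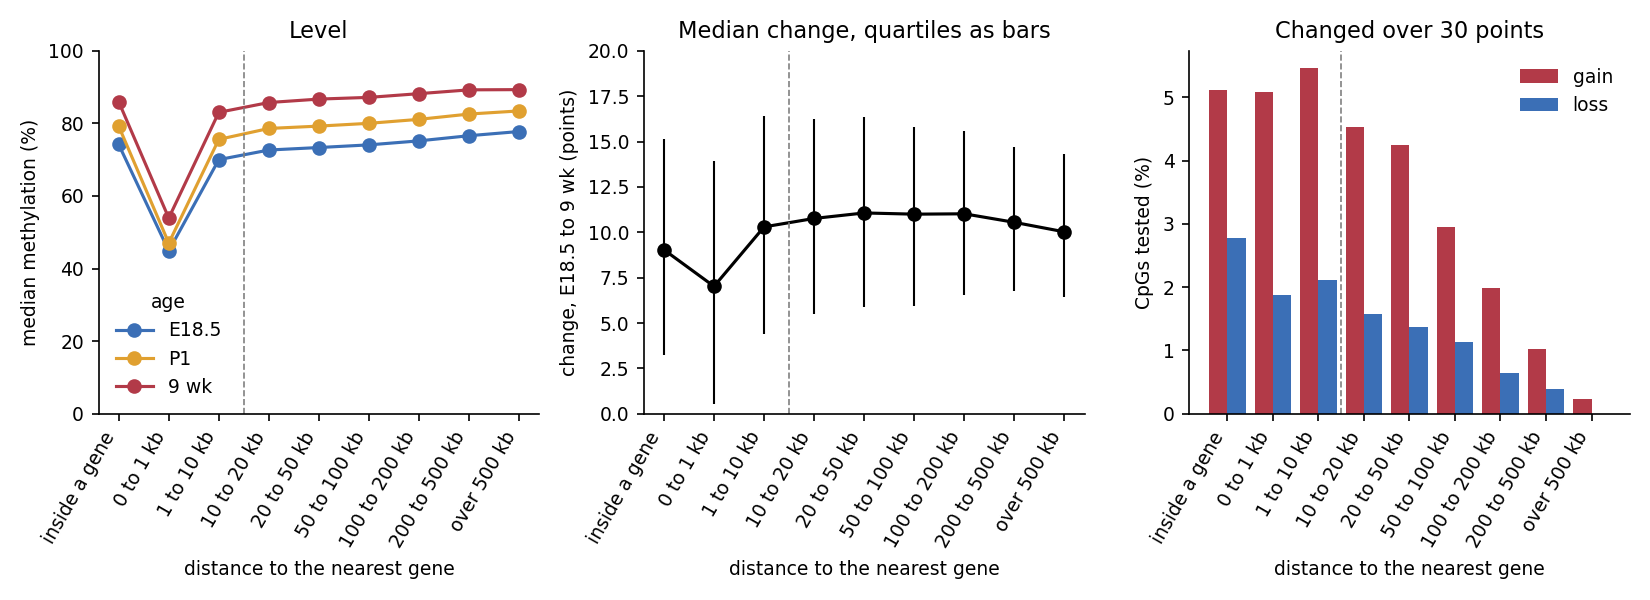
Median methylation level (left, percent) at E18.5, P1 and 9 wk, median change from E18.5 to 9 wk with quartiles (middle, percentage points) and percent of tested CpGs that gained or lost over 30 points (right), by distance to the nearest gene; distal CpGs lie right of the dashed line. The median change stays between 10.0 and 11.1 points in the 6 distal classes, while gains over 30 points go from 4.53 to 0.227% and losses over 30 points from 1.57 to 0%.

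Large changes were also rarer at the far end in narrower sets of CpGs. Among distal CpGs whose 51 bases occurred once, gains over 30 points went from 4.76% at 10 to 20 kb to 1.17% at 200 to 500 kb, and losses over 30 points from 1.66 to 0.454%. Among CpGs at 40 to 80% methylation at P1, which leaves out those that were already full, gains went from 5.40 to 1.64% and losses from 3.09 to 0.890%. Among CpGs with 6 to 10 CpGs in their window, gains went from 5.34 to 1.53% and losses from 1.87 to 0.629%. With distance taken to protein-coding genes alone, gains over 30 points were 4.27% at 10 to 20 kb, 4.75% at 20 to 50 kb and 0.153% over 500 kb, so they did not fall at every step, and losses were 1.73, 1.40 and 0.197%. Both were also lower far from genes after scaling each library by its highly methylated CpGs, with gains from 2.77 to 0.515% and losses from 2.15 to 0.601% between 10 to 20 kb and 200 to 500 kb. Inside genes, 5.12% of CpGs gained and 2.77% lost over 30 points. These shares are descriptions over CpGs of the same libraries and were not tested against each other.

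Levels were alike on both sides of the limit of 10 kb. The 2510 CpGs at 9 to 10 kb had median levels of 72.7, 78.5 and 85.6% at E18.5, P1 and 9 wk, and the 2165 distal CpGs at 10 to 11 kb had medians of 73.0, 78.8 and 85.7%. Gains over 30 points were 4.10% at 9 to 10 kb and 5.31% at 10 to 11 kb, and losses over 30 points 2.65 and 1.79%. The lowest levels were found within 1 kb of a gene, where the medians were 44.9, 47.0 and 53.9%.

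How a distal CpG changed varied with the density of CpGs around it. CpGs with at most 5 CpGs in that window rose by a median of 13.7 points between E18.5 and 9 wk, those with 6 to 10 by 11.4 points, with 11 to 15 by 9.53, with 16 to 20 by 8.27 and with 21 to 30 by 6.98 points. The sparsest class had the lowest median at E18.5 of the classes up to 30 CpGs, 71.7%, and reached 87.0% at 9 wk. The 418 distal CpGs with over 30 CpGs in the window stood apart, at medians of 13.1, 13.8 and 15.9%, and the removal of CpGs under 10% in every library bears on this class as well.

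Of the distal CpGs kept in the table, those in island-like sequence were mostly methylated. CpG islands are stretches of high GC and CpG content that often mark promoters and are then free of methylation. Taking windows with over 50% GC and an observed to expected CpG ratio over 0.6, 3826 distal CpGs in 1226 loci were island-like, with median levels of 78.6, 83.5 and 88.6% at E18.5, P1 and 9 wk. The 24642 near-gene CpGs chosen the same way had medians of 15.5, 16.1 and 23.9%. The removal of CpGs under 10% in every library bears on both sets. These medians therefore describe the CpGs kept and not all CpGs of such sequence. Among the 3083 distal island-like CpGs in sequence that occurred once the medians were 75.9, 80.8 and 85.8%. A set of 623 distal island-like CpGs was under 20% at P1. CpGs this low are in the table only where some library reached 10%, so no change is read from their medians, which were 9.43, 9.51 and 12.6%.

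Distal CpGs in repeated sequence were more methylated than the others and rarely changed by much. The 5201 CpGs whose 51 bases recurred had medians of 79.4, 85.2 and 91.8% at E18.5, P1 and 9 wk, against 73.5, 79.4 and 86.6% at the 65038 that occurred once. Their median change was 10.8 points against 10.9, yet gains over 30 points were 0.310% against 3.64% and losses 0.0207% against 1.26%. How reads were assigned among the copies was not tested. The 51 bases that recurred most often, printed above, occurred 22462 times, lay 49498 bp from a gene, and had mean levels, with the SD over libraries, of 69.2% ± 6.22 at E18.5, 82.0% ± 4.86 in P1 livers and 89.3% ± 9.37 in adults.

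A CpG read on both strands gives 2 measurements of nearly the same DNA in the same library. At 2739 distal CpGs both strands were in the table, and the SD of the difference between strands within a library had a median of 8.93 points at E18.5, 12.6 at P1 and 14.4 at 9 wk. Values of single CpGs in single libraries are therefore imprecise, though by less than this SD, which holds the errors of both strands. Across the 2242 pairs tested from E18.5 to 9 wk, the changes on both strands correlated at r = 0.859, a description across CpGs that share libraries and fragments, and all 1176 pairs called on both strands changed in 1 direction.

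The single CpGs with the largest changes lay next to genes of varied function. The CpGs named here were read in all libraries of the ages compared, with ranges that did not overlap and 51 bases that occurred once, and larger changes exist at CpGs outside these limits. Within them, the largest gain from E18.5 to 9 wk was at chr15:59111720, 34912 bp upstream of Sqle, which encodes squalene epoxidase of cholesterol synthesis. This CpG was at 8.77 to 15.6% at E18.5, at 13.0 to 31.2% with a median of 21.8% at P1, and at 70.6 to 95.8% with a median of 80.5% at 9 wk. No library of 9 wk overlapped with either earlier age. The gain was 69.0 points ± 3.58 (SE; limma, adjusted p = 1.24e-09) from E18.5 and 59.2 points ± 3.50 (adjusted p = 3.32e-11) from P1, the largest from P1 as well within the same limits. At chr17:84518629, 64642 bp downstream of Zfp36l2, which encodes a protein that destabilizes messenger RNAs, the level went from 20.6 to 26.7% at E18.5 to 66.7 to 100% at 9 wk, a gain of 63.4 points ± 4.75 (adjusted p = 3.07e-08).

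Within the same limits, the largest loss from E18.5 was at chr10:120950371, 33140 bp downstream of Tbk1, a kinase of innate immune signalling. It was at 83.9 to 92.9% at E18.5, at 79.2 to 100% in 7 libraries of P1, and at 14.7 to 40.9% with a median of 26.6% at 9 wk, a change of -60.8 points ± 3.78 (adjusted p = 5.57e-09). At chr7:119330765, 28194 bp upstream of Dkk3, a secreted protein of the dickkopf family, the level was 90.9 to 92.3% at E18.5, 77.8 to 100% with a median of 94.7% at P1 and 17.6 to 58.5% with a median of 28.6% at 9 wk. That change was -56.8 points ± 5.82 from E18.5 (adjusted p = 8.29e-07) and -58.0 points ± 4.76 from P1 (adjusted p = 3.31e-09), the largest loss from P1 within these limits. At both CpGs P1 overlapped with E18.5 and all adults were lower. From P1 the next largest changes were a gain of 56.8 points ± 4.49 at chr13:98329728, 62768 bp downstream of the lincRNA Gm11019 (adjusted p = 1.94e-09), and a loss of -54.7 points ± 3.30 at chr8:129015184, 12084 bp downstream of the miRNA gene AC118255.1 (adjusted p = 4.05e-11).

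Between E18.5 and P1 the named CpGs changed less and their calls were less certain. At chr17:84514760, also downstream of Zfp36l2, the level went from 27.3 to 40% at E18.5 to 47.1 to 76.2% at P1, a gain of 26.0 points ± 4.62 (limma, adjusted p = 0.0840), and stood at 80 to 100% at 9 wk. At chr4:12977627, 25660 bp upstream of the transcript Gm11820, the level went from 53.8 to 66.0% to 68.8 to 100%, a gain of 25.9 points ± 4.34 (adjusted p = 0.0840). The 1 loss that met the same conditions, at chr15:88706210 and 10060 bp downstream of the kinase gene Pim3, was -12.6 points ± 3.02 (adjusted p = 0.0977), and this CpG was at 0 to 32.4% at 9 wk. All 3 missed an adjusted p of 0.1 without any 1 of the E18.5 libraries, where it ran from 0.103 to 0.214, and without P1 replicate 6, 8 or 9. The loss near Pim3 also missed it without P1 replicate 3 or 7.

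Some large changes lay in runs of neighbouring distal CpGs. There were 47 runs of at least 5 consecutive CpGs that all gained over 30 points between E18.5 and 9 wk, holding 299 CpGs, and 12 runs that all lost over 30 points, holding 73 CpGs. The gain runs held 0.457% of the distal CpGs tested, against 0.978% over all autosomal CpGs, and the loss runs 0.112% against 0.523%. Of the distal CpGs that gained over 30 points 13.5% were in such runs, against 20.8% over all autosomal CpGs, and of those that lost as much 9.59% against 23.2%. Distal loci held fewer CpGs on average, with 70239 CpGs in 26638 loci against 199791 in 66642 for near-gene CpGs. These run shares were not adjusted for that. The gain run with the most CpGs held 15 CpGs in 233 bp at chr4:134581815-134582047, between Syf2, a splicing factor 88.4 kb away, and Runx3, a transcription factor of blood and other lineages 94.5 kb away. The mean of the run was 29.6, 26.6, 29.8, 32.1 and 23.7% in the E18.5 libraries, 25.9 to 46.7% with a median of 34.3% at P1, and 55.6 to 78.1% with a median of 69.0% at 9 wk. Every library of 9 wk lay above all others, and the mean change was 41.8 points (limma, largest adjusted p of the 15 CpGs = 0.000456).

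A run of 11 CpGs in 392 bp at chr6:88066842-88067233 gained methylation between Rpn1, a subunit of the oligosaccharyltransferase complex 11.5 kb away, and Gata2, 76.7 kb away, a transcription factor needed by blood stem and progenitor cells. An enhancer of Gata2 that acts in blood cells is known to lie far upstream of that gene, on its Rpn1 side. Gata2 was singled out as the gene on the far side after the values were seen. The run stood at 32.3, 34.7, 34.2, 32.5 and 31.6% at E18.5, at 35.1 to 54.2% with a median of 42.9% at P1, and at 80.98 to 93.0% with a median of 86.5% at 9 wk. The P1 libraries lay above the E18.5 libraries and the adults above both, with a mean change of 53.4 points from E18.5 to 9 wk (largest adjusted p = 0.00129).

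The run with the largest mean gain held 10 CpGs in 93 bp at chr5:34035168-34035260, between Tacc3, a protein of the mitotic spindle 13.5 kb away, and Fgfr3, a receptor for fibroblast growth factors 29.1 kb away. It was nearly unmethylated before birth, at 6.84, 7.36, 10.1, 9.34 and 13.3%, stood at 7.50 to 22.01% with a median of 13.3% at P1, and reached 61.9 to 83.3% with a median of 72.9% in the 9 libraries of 9 wk that had values. The mean change was 63.3 points (largest adjusted p = 6.04e-06). The E18.5 and P1 libraries overlapped, and every adult lay above both.

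The loss run with the most CpGs, 9 in 76 bp at chr2:125618720-125618795, lay 10.1 kb from Secisbp2l and 37.2 kb from Cops2, which encodes a subunit of the COP9 signalosome. It was at 79.0, 77.3, 69.6, 75.4 and 65.6% at E18.5, at 66.1 to 81.7% with a median of 70.5% at P1 and at 16.4 to 36.4% with a median of 27.1% in 8 libraries of 9 wk, a change of -47.7 points (largest adjusted p = 8.64e-05). The run with the largest mean loss held 5 CpGs in 80 bp at chr17:32041129-32041208, between Sik1, a kinase that restrains the genes of glucose synthesis in liver, 48.4 kb away, and Hsf2bp, 40.5 kb away. Its libraries stood at 73.8, 78.3, 79.8, 81.2 and 75.9% at E18.5, at 72.4 to 89.5% with a median of 80.7% at P1, and at 18.3 to 47.4% with a median of 25.6% in 9 libraries of 9 wk. The change was -52.5 points (largest adjusted p = 9.09e-06).

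In both runs the P1 livers overlapped with E18.5 and all adults were lower. A run of 8 CpGs at chr11:114236938-114237039, 17363 bp from the pseudogene Gm11692 and 176 kb from the nearest protein-coding gene, went from 74.3% ± 4.33 at E18.5 (SD, n = 5) to 78.9% ± 4.35 at P1 (n = 9) and 32.3% ± 7.04 at 9 wk (n = 10). Another of 7 CpGs at chr18:56517404-56517496, 42.5 kb upstream of Gramd3, went from 67.9% ± 3.49 to 60.2% ± 12.4 and 29.4% ± 8.06. After scaling by the highly methylated CpGs, the 3 named gains were 36.3, 46.8 and 59.1 points, and the 4 named losses ran from -44.9 to -59.6 points.

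**Figure D4:**
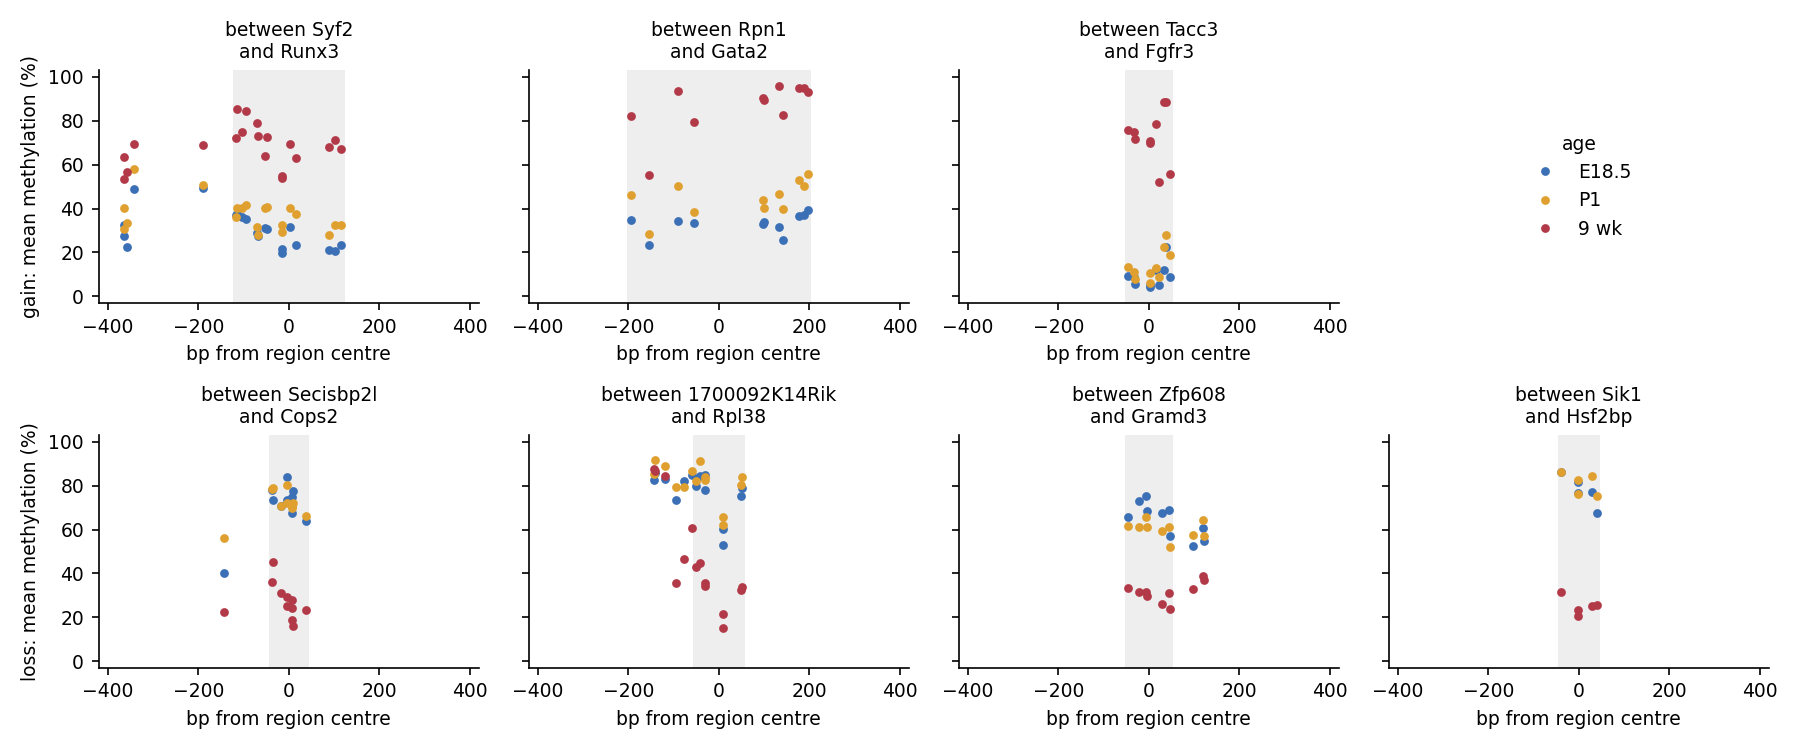
Mean methylation level of each CpG (y axis, percent) against distance from the centre of the run (x axis, bp) for the named runs that gained (top) and lost (bottom) over 30 points, with 1 point per CpG and age; the grey band is the run, and titles name the protein-coding genes on either side. In the gains the 9 wk points stand above those of E18.5 and P1, from a run mean of 9.39% at E18.5 to 72.7% at 9 wk near Fgfr3, and in the losses they stand below, from 77.8 to 26.8% near Sik1.

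The loci farthest from genes lay in 1 gene-poor stretch of chromosome 14 and changed little. The most remote locus of at least 5 CpGs, chr14:81796092-81796224, was 987949 bp from the nearest gene, an snRNA named U1, and 1373425 bp from Olfm4, the nearest protein-coding gene. It stood at 81.2 to 88.9% at E18.5, at 75.8 to 94.3% at P1 and at 86.3 to 96.5% at 9 wk, a gain of 7.12 points ± 2.06 (SE; limma on loci, adjusted p = 0.00610). The locus at chr14:81960515-81960810, with 14 CpGs and 823363 bp from a gene, was at 52.4% ± 4.89 at E18.5 (SD, n = 5), 52.9% ± 5.64 at P1 (n = 9) and 47.5% ± 5.54 at 9 wk (n = 6), too few for the test, and some of its 51-base windows occurred 105 times. The one at chr14:81245839-81245933, 823172 bp from Olfm4, was at 46.1% ± 2.95, 49.6% ± 5.09 and 52.3% ± 9.23, a difference of 6.15 points ± 3.99 (adjusted p = 0.176). At each of the 3 loci the ranges of E18.5 and 9 wk overlapped.

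Distal loci were then sorted by 4 lists of genes, a locus counting for a list when its nearest gene or nearest protein-coding gene was on it. Of 49 tested loci next to genes of hepatocyte function, 38 gained methylation, 4 lost it and 7 passed neither way, with a median change of 15.7 points against 11.8 points over all tested distal loci. Loci next to genes of blood formation numbered 65, with 47 gains, 7 losses and 11 without a call, and a median of 10.9 points. Next to developmental transcription factors 368 loci were tested, with 274 gains, 22 losses, 72 without a call and a median of 11.8 points. Next to imprinted genes 32 were tested, with 27 gains, 2 losses, 3 without a call and a median of 12.8 points, from a median level of 58.1% at E18.5 against 73.2% over all tested distal loci. Gains over 30 points were 2, 4, 8 and 1 in the order of the lists, and losses over 30 points 1, 1, 1 and 0. The shares that gained were 77.6, 72.3, 74.5 and 84.4%, beside 78.3% of all distal loci tested. The shares that lost were 8.16, 10.8, 5.98 and 6.25%, beside 4.14%, and gains over 30 points were 4.08, 6.15, 2.17 and 3.13%, beside 2.55%. In the order of the lists, the loci, tested or not, lay next to 9 of 32, 11 of 29, 40 of 48 and 14 of 20 genes. Several loci can thus share 1 gene. The counts behind these shares are small, and none of the shares was tested.

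Within the hepatocyte list the largest gains were 33.1 points 246819 bp upstream of Prox1, a transcription factor of hepatocyte and lymphatic development, and 33.0 points 32893 bp upstream of Cps1, the first enzyme of the urea cycle. The Prox1 locus, 11 CpGs, went from 26.5% ± 2.60 (SD, n = 5) to 59.5% ± 4.96 (n = 7; limma, adjusted p = 2.35e-07), and the Cps1 locus from 48.6% ± 5.28 to 81.6% ± 5.32 (adjusted p = 2.56e-07). The largest loss, -36.3 points, was 73564 bp upstream of Ppara, the nuclear receptor that drives fatty acid oxidation, from 58.3% ± 5.77 at E18.5 through 62.8% at P1 to 21.95% ± 3.77 at 9 wk (adjusted p = 1.97e-07). A locus 27270 bp upstream of Apob, the structural protein of liver lipoproteins, changed by -18.6 points, from 43.1% ± 6.91 to 24.4% ± 11.1 (adjusted p = 0.00375).

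Near genes of blood formation, loci that moved in opposite directions lay downstream of Kit, the receptor for stem cell factor on blood progenitors. The locus 105576 bp downstream of it went from 21.4% ± 3.19 at E18.5 (SD, n = 5) to 66.7% ± 7.05 at 9 wk (n = 7; limma, adjusted p = 1.14e-07), while the locus 89732 bp downstream went from 74.5% ± 2.23 to 28.1% ± 5.27 (adjusted p = 1.26e-09). A locus 25318 bp upstream of Lmo2, a cofactor of blood transcription factors, gained 42.7 points, from 37.4% ± 10.7 to 80.1% ± 6.00 (adjusted p = 2.56e-07). A single CpG 112676 bp downstream of Bcl11a, a repressor of fetal globin genes, went from 40.997% ± 5.44 to 11.7% ± 10.2, a change of -29.3 points (adjusted p = 8.39e-05).

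Next to developmental transcription factors, which are mostly silent in liver, the largest gain was 47.4 points at a locus 191327 bp downstream of Sox9, from 13.2% ± 5.14 to 60.7% ± 7.09 (limma, adjusted p = 1.46e-07), and the next was 41.6 points at a CpG 96255 bp upstream of Tshz3 (adjusted p = 1.38e-07). The largest losses were -41.7 points 42925 bp downstream of Pax2 (adjusted p = 1.29e-06) and -28.0 points 173175 bp downstream of Irx1 (adjusted p = 8.02e-06). Next to imprinted genes, which are expressed from 1 parental copy, a locus 56677 bp upstream of Peg3 gained 40.9 points, from 32.1% ± 10.4 to 73.0% ± 5.05 (adjusted p = 2.19e-06), and one 15246 bp upstream of Meg3 gained 28.6 points, from 12.4% ± 3.89 to 40.98% ± 12.9 (adjusted p = 0.000352). The losses there were small, -10.1 points at a locus of 15 CpGs 29530 bp upstream of Plagl1 (adjusted p = 0.000951) and -8.22 points at another locus upstream of Peg3 (adjusted p = 0.00570).

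The sequence around distal loci was searched for short motifs of transcription factors on both strands of the 200 bases to either side of the centre of each locus. The motifs were TGTTTAC for FOXA, CAAAGTCCA for HNF4, GTTAATNAT for HNF1 and TTGCNNCAA for C/EBP, factors of hepatocytes, AGATAAG for the GATA family, TGTGGTT for RUNX and ACAGGAAG for ETS, factors of blood cells among others, and AGGGGGC for the core of the CTCF site. Among the 580 loci that gained over 30 points, RUNX matched at 95 or 16.4%, against 7.01% of all 22752 tested distal loci. ETS matched at 64 or 11.0% against 3.69%, and GATA at 59 or 10.2% against 4.53%. The hepatocyte motifs matched at 5.69% against 5.02% for FOXA, 0.345% against 0.312% for HNF4, 0% against 0.791% for HNF1 and 3.10% against 3.24% for C/EBP, and the CTCF core at 6.90% against 4.94%.

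At the 202 loci that lost over 30 points, RUNX, ETS and GATA were closer to their shares of all loci than at the gains. RUNX matched at 13 loci or 6.44%, ETS at 9 or 4.46% and GATA at 12 or 5.94%. FOXA matched at 14 or 6.93%, C/EBP at 5 or 2.48%, the CTCF core at 5 or 2.48%, HNF1 at 2 or 0.990% and HNF4 at 0. Near-gene loci that gained over 30 points held RUNX at 13.3% against 7.29% of near-gene loci tested, the CTCF core at 9.93% against 7.95%, GATA at 9.57% against 3.95% and ETS at 8.94% against 4.35%. Near-gene loci that lost over 30 points held FOXA at 6.84% against 4.11%, HNF4 at 1.84% against 0.509%, HNF1 at 1.67% against 0.677% and C/EBP at 3.26% against 2.76%. There RUNX, GATA, ETS and the CTCF core were below their shares of near-gene loci tested, at 6.84, 3.76, 2.75 and 4.59%. Median GC was 50.1% at the gains, 49.1% at the losses and 49.1% over all tested distal loci. Matches of different motifs overlapped in few loci, at most 8 of the 22752 for any pair (C/EBP with RUNX) and 6 for RUNX with ETS. None of the printed gain sequences held an exact match to the strings searched for RUNX, ETS or GATA. Close variants were not counted. The sequence between Rpn1 and Gata2, for example, holds TGATAAG on the minus strand, which differs from AGATAAG only in its first base. A match is a string of letters, not a bound site.

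**Figure D5:**
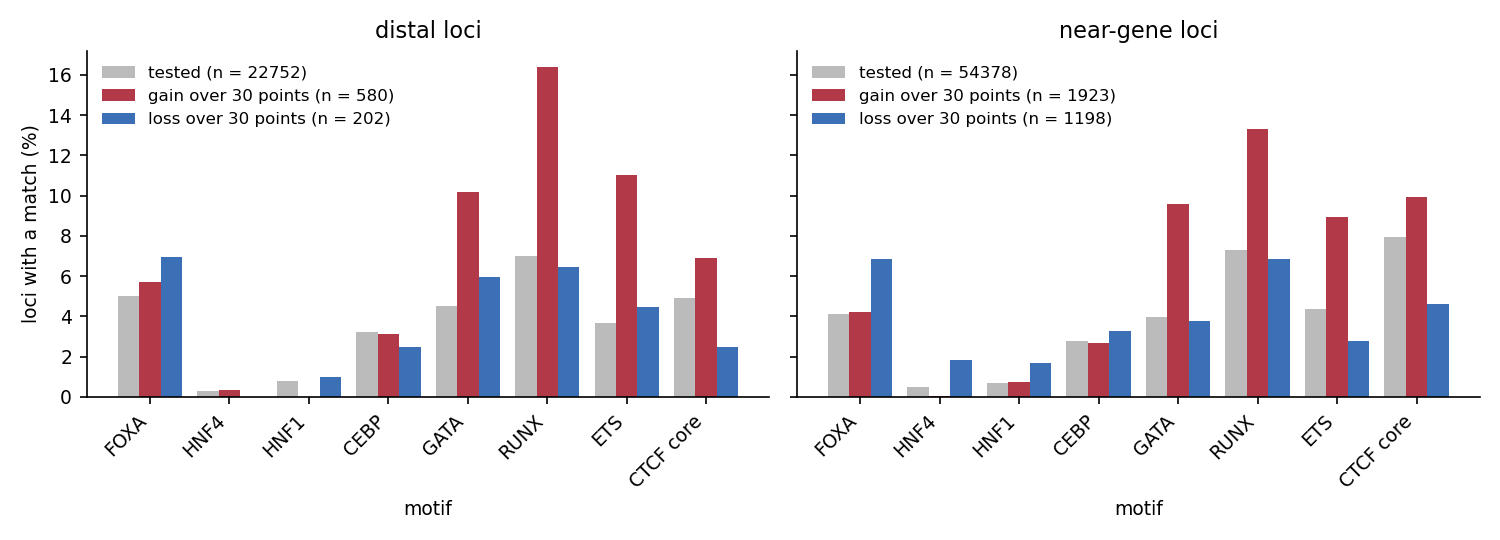
Percent of loci with at least 1 match to each motif within 200 bases of the centre (y axis) for distal loci (left) and near-gene loci (right), for all loci tested (grey), loci that gained over 30 points from E18.5 to 9 wk (red) and loci that lost over 30 points (blue). Among distal gains RUNX, ETS and GATA stand at 16.4, 11.0 and 10.2%, above the 7.01, 3.69 and 4.53% of all distal loci tested.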

How the data were processed

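Libraries were grouped by their age labels: 5 of E18.5, 9 of P1 and 10 of 9 wk. Per the study's methods, reads were aligned to mm9 with Bismark (version 0.7.6) and Bowtie2, and CpGs with a value in under 80% of libraries, or under 10% in all, were removed; the table held no such CpG. The deposited values were fractions of methylated reads per CpG and library, given by the authors with no read counts. Depth at each CpG and library is thus unknown, though the study reports an average coverage, and fractions were multiplied by 100. Fractions behind under 10 reads were set to missing by the authors. Per-library missing values ranged from 0 to 40.8% of the distal CpGs, and the 3 libraries of 9 wk whose labels name no comparison table lacked 29.9 to 40.8%. Missing values went with age, at means of 0.0302% at E18.5, 3.27% at P1 and 15.1% at 9 wk. Of the distal CpGs that no library lacked, means of 0.0604, 2.81 and 15.6% read exactly 100% at these ages. Whether depth differed between the ages was not tested.

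Distances came from the GENCODE genes of mm9. Each pair of ages was fitted with limma (version 3.58.1, R 4.3.3) over all CpGs with a value in at least 80% of the libraries compared and at least 10% in 1 of them, with Benjamini-Hochberg adjustment, and a CpG was called at an adjusted p of at most 0.1 and over 5 points. Locus fits used means over CpGs with gaps of at most 200 bp. Replicates are separately labelled samples, and p-values measure the spread between these samples. The fit was tested on simulated data.

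Named items followed a rule: per comparison the 2 largest gains and losses among called CpGs read in every library, with ranges that did not overlap and 51 bases occurring once; the 3 longest runs and the run of largest mean change per direction; the 3 most remote loci of at least 5 CpGs; and the 2 largest gains and losses per gene list. The members and lists were chosen with earlier results of these data known, and the classes of density, level and copies after seeing the data. Tables of the authors' differences, p-values and q-values, the locus-specific data and a second table on mm10 were not used.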

Additional observations from a re-analysis of the deposited data

Results flagged for a closer look

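In 60 groups of per-library values, 2 held a library far from the rest, where chance gives about 1 in 20 groups. At the run that lost methylation between Sik1 and Hsf2bp, replicate 7 of 9 wk stood at 47.4%, and the next highest of the 9 libraries at 30.9%. At the CpG chr7:119330765 near Dkk3, replicate 1 of P1 stood at 77.8%, and the next lowest of the 9 libraries at 90%. Both loci kept their direction and call when any 1 library was left out.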

How the results depend on the processing

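No paired analysis was possible because the libraries of different ages come from different animals and the labels give them no shared replicate number. Of 65 alternatives to the summary results, 42 stayed within the limits set (a count within 1.5 times, a mean within 1 SD), and none turned a direction. Leaving out 1 library kept 162 of 175 values within those limits, and the other 13 were the count from E18.5 to P1, which ran from 0 to 1406. Of 428 values of named CpGs, regions and loci that could be tested without 1 library, 402 kept their call. The 26 lost calls were the 3 CpGs of E18.5 to P1. Items left with too few values were not counted, so not every named item was tried without each library. The gain locus near Kit could be tested only without replicate 3, 8 or 10 of 9 wk. The loss run near Secisbp2l could be tested only without replicate 1, 4, 9 or 10 of 9 wk.

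The count from E18.5 to P1 was 0 at an adjusted p of at most 0.05, 0 on the logit scale, 0 after scaling and 0 without P1 replicates 6, 8 and 9, an alternative chosen after seeing the data, 2592 with Storey's q and 3421 when loci were fitted. With a value required in every library, the counts from E18.5 to 9 wk were 13567 and 804 (over 30 points), and those from P1 were 7635 and 486, since fewer CpGs could be tested. By locus they were 18757, 782, 10571 and 445, since loci are fewer. Loci joined at gaps of at most 50 bp gave 1379 changes over 30 points. After scaling, the counts at 9 wk were 15939 against E18.5 and 10349 against P1, the mean changes 1.86 points (E18.5 to 9 wk), 1.09 (E18.5 to P1) and 0.774 (P1 to 9 wk), and the excess of distal over near-gene change 1.33 points. That excess was 1.70 points over all CpGs with a value. The share called was 68.3% with distance to protein-coding genes alone. Where not stated, the cause was not tested. Without read counts, what depth limits at single CpGs could not be computed.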

Other observations

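Grouped by their level at P1, which the comparison of E18.5 with 9 wk did not use, distal CpGs of intermediate methylation had the highest shares of large changes. A CpG above 80% has little room to gain and one under 20% little room to lose. Of those at 20 to 40% at P1, 23.9% of the CpGs tested gained over 30 points between E18.5 and 9 wk and 0.832% lost as much. Under 20% the shares were 7.50 and 0%, at 40 to 60% they were 12.1 and 4.40%, at 60 to 80% they were 1.98 and 1.68%, and above 80%, the class of 35144 CpGs, they were 0.0735 and 0.349%. Near-gene CpGs at 40 to 60% at P1 gained in 15.1% and lost in 8.93%. On single chromosomes the median change of distal CpGs lay between 10.3 and 11.4 points.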
